A study of Mus musculus with 6 samples.

Results

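Complement genes were examined in the visceral (epididymal) fat of mice fed a normal diet (ND) or a high-fat diet (HFD). The 35 genes were taken by symbol from the 54532 genes of the count table and comprised components, receptors and regulators of the complement system. Of these, 27 had enough counts to be tested and 8 did not. RNA-Seq had been run on 3 samples of epididymal fat per diet from male C57BL/6J mice. The ND contained 4.5% fat and the HFD 60% fat, mice received either from an age of 4 weeks for 16 weeks, and the libraries of neither diet carried a drug treatment. Libraries are named ND1 to ND3 and HFD1 to HFD3 by diet and replicate number. The labels do not say whether the replicates of a diet came from separate mice, so p-values measure the spread between these samples.

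Complement is a set of proteins that mark, lyse or recruit phagocytes to targets. The classical route starts when C1q binds a target and activates C1r and C1s, the lectin route starts when collectins or ficolins activate the Masp proteases, and both cut C4 and C2 into an enzyme that cuts C3. The alternative route amplifies C3 cleavage with factor B, factor D and properdin. Downstream, C5 to C9 form the membrane attack complex, while the small fragments C3a and C5a act on receptors of myeloid cells. Adipose tissue is known as a main source of factor D, which was first named adipsin, and macrophages are known as a main source of C1q.

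Count totals lay between 16996896 and 18859320 per library, so that 3 counts corresponded to 0.149 to 0.18 CPM (counts scaled to library size with edgeR's TMM factors). Adipocyte markers made up 51860 to 67720 CPM across the ND libraries against 38330, 55690 and 26170 CPM in HFD1, HFD2 and HFD3. Of these 15 markers, none was higher and 2 (Retn and Slc2a4) were lower on HFD, with a median log2 fold change of -0.52. The 15 macrophage markers summed to 1609 to 1746 CPM in ND fat against 4901, 3676 and 8793 CPM in the HFD libraries, and 9 were higher and none lower. The 9 markers of lipid-associated macrophages summed to 417.2 to 578.8 CPM in ND fat against 5592, 3085 and 11920 CPM in HFD fat, and 8 were higher. None of the progenitor and fibroblast (12 tested, median log2 fold change 0.03), mesothelial (9, -0.30), endothelial (8, -0.29), B lymphocyte (5, 0.27), T and NK lymphocyte (5, 0.34) or motile cilium and duct epithelium markers (3, -0.10) passed the threshold. Of the neutrophil markers 3 of 6 were tested. S100a8 was higher, while S100a9 and Elane did not pass and had negative log2 fold changes (-0.81 and -0.97). Of the hepatocyte markers 2 of 6 were tested, Serpina1a was lower and Fgb was at 0. ND3 stood apart in the markers of motile cilium and duct epithelium, with 165.5 CPM against 18.76 to 24.28 CPM in the other 5 libraries.

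The complement genes did not move as one group. By edgeR's quasi-likelihood test with Benjamini-Hochberg adjustment over all genes, 12 of the 27 tested genes differed between the diets at an adjusted p-value under 0.05 (44.4%, against 15.9% of the 15751 genes tested). Among them, 8 were higher on HFD (29.6%, against 9.85% of all genes tested) and 4 were lower (14.8%, against 6.04%). The higher genes were the C1q chains C1qa, C1qb and C1qc, the receptor genes C3ar1, C5ar1 and C5ar2, the properdin gene Cfp and the inhibitor gene Cd59a. The lower genes were Cfd, Masp1, C6 and C2. No overlap between HFD and ND values was seen in 15 of the 27 genes (55.6%, against 40.9% of all genes tested). The median log2 fold change was 0.10 over the 27 genes and 0.01 over all genes tested, and 14 of the 27 were positive. At an unadjusted p under 0.05 from the same test, 15 of the 27 passed. The share over all genes is not given for that threshold, so the count is not read as particular to these genes. Each of the 12 genes had at least 18 counts in every library, so none of them passed the filter through 1 diet alone.

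**Figure D1:**
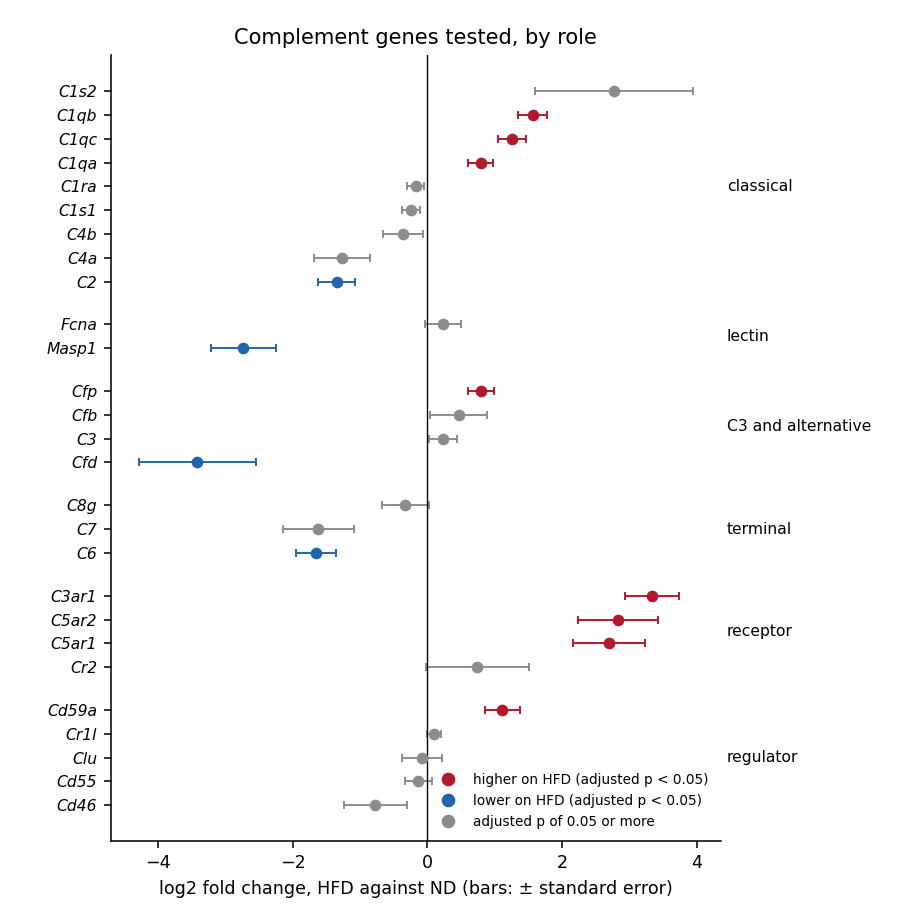
Log2 fold change of HFD against ND (x axis) for the 27 complement genes tested, grouped by role, with bars of ± 1 standard error, where red and blue mark genes higher and lower on HFD at an adjusted p under 0.05 and grey the others. The C3a and C5a receptor genes lie farthest to the right among the genes past the threshold, with C3ar1 at 3.33, and Cfd lies farthest to the left at -3.42.

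On a scale per transcript length, Cfd stood far above the other complement genes in ND fat. Its mean FPKM was 15010 ± 2244 (SD, n = 3), followed by C3 with 256.5 ± 49.64, C1qa with 214 ± 12.25, C1qb with 181.9 ± 8.1 and C4b with 174.1 ± 40.96. C1qb and C4b overlapped between the ND libraries, while C3 lay above C1qa and C1qa above C1qb in each of them. On HFD, Cfd had 1391 ± 1282 FPKM, C1qb 532.5 ± 144.9, C1qa 366.6 ± 74.51 and C3 300 ± 23.36. Cfd supplied 91.8%, 92.3% and 90.8% of the summed FPKM of the 35 genes in ND1, ND2 and ND3. Its share was 38.4%, 58.9% and 7.06% in HFD1, HFD2 and HFD3. The share of C1qb went the other way, from 1.14%, 1% and 1.22% on ND to 15.1%, 8.79% and 27.7% on HFD. In HFD3, C1qb, C1qa, C3 and C1qc each had a higher FPKM than Cfd.

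**Figure D2:**
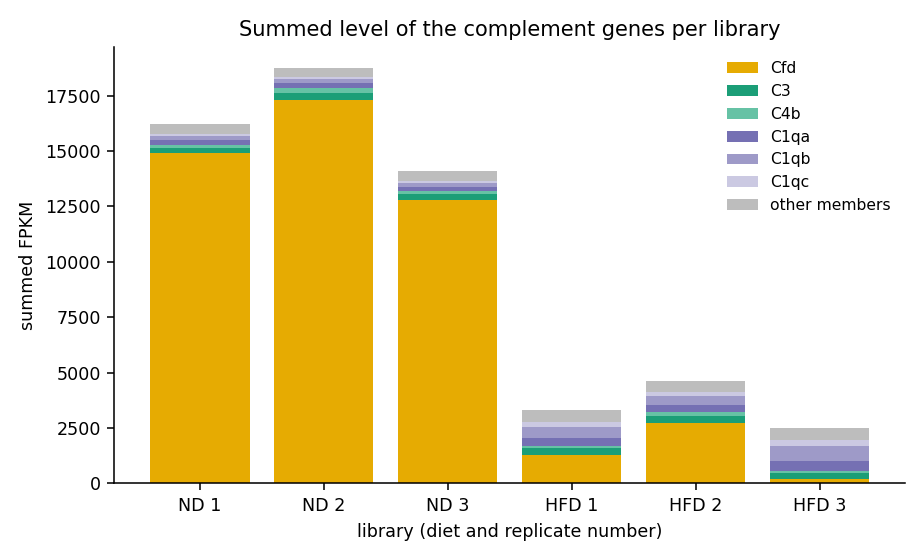
Summed FPKM (y axis) of the 35 complement genes in each of the 6 libraries (x axis), stacked by gene. Cfd fills over 90% of each ND bar and 7.06% to 58.9% of the HFD bars, and the C1q chains take up more of the HFD bars.

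Cfd encodes factor D, the serine protease that cuts factor B in the alternative route. The gene (ENSMUSG00000061780, GRCm38 chromosome 10 from 79890853 to 79892655, plus strand) shares no exon with another gene and no run of 100 bases with another transcript. Its promoter is shown because Cfd had the lowest log2 fold change of the 27 genes. The sequence is from RefSeq on GRCm38.p6, chr10:79890603-79890852, plus strand, the 250 bases before the start, in which neither motif searched was found.

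Cfd: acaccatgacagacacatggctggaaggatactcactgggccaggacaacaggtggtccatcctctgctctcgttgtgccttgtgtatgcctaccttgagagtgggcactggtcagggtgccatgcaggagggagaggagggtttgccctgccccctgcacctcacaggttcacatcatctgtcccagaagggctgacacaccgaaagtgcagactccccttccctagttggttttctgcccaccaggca

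Cfd was the gene with the highest FPKM of the whole table in ND1, ND2 and ND3, and it ranked 24, 12 and 276 in HFD1, HFD2 and HFD3. Its levels were 13480, 15620 and 11710 CPM across the ND libraries against 1158, 2501 and 162.2 CPM in the HFD libraries. The diets did not overlap, and HFD3 was lowest, with the ND mean 83.9 times its value, against 11.7 times for HFD1 and 5.44 times for HFD2. The log2 fold change was -3.42 (standard error, SE, 0.87, adjusted p = 0.0396), a 10.7-fold lower level on HFD. In these bulk samples fewer cells of a type and less RNA per cell cannot be told apart. The call was lost without ND1, ND2, ND3 or HFD1 (adjusted p = 0.0816 to 0.145) and without the filter on low counts (adjusted p = 0.131), while the direction held in each of these fits.

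The log2 fold change of Cfd lay under those of the 15 adipocyte markers, which ran from -2.05 (Retn) to 0.14 (Acsl1). Within a library, Cfd had 0.22, 0.231 and 0.226 of the summed CPM of these markers on ND. The ratio was 0.0302, 0.0449 and 0.0062 in HFD1, HFD2 and HFD3. The log2 ratio differed by -3.47 between the diets, with no overlap (exact permutation test, two-sided p = 0.1, the smallest that 3 against 3 samples can give). Adipoq, which encodes the adipocyte hormone adiponectin, had 3285, 3802 and 2800 CPM in ND fat against 2065, 3828 and 1031 CPM in HFD fat. HFD3 thus held the lowest level of both genes, but the HFD2 level of Adipoq exceeded all 3 ND levels. The part of adipocyte content in the fall of Cfd was not tested.

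The genes of C3 and factor B, the proteins from which the alternative convertase is formed, showed no call. C3, the central component, had 1147, 1581 and 1163 CPM in ND fat against 1576, 1624 and 1402 CPM in HFD fat, with ND2 inside the HFD range (log2 fold change 0.24, adjusted p = 0.449). Cfb was measured with few counts, 32, 65 and 100 on ND and 102, 94 and 57 on HFD (log2 fold change 0.47, adjusted p = 0.481). Of its exon bases, 79.5% are shared with the readthrough gene Gm20547, which had 0, 0 and 2 counts on ND and 0 in each HFD library. Reads from the shared bases may have been left out of the counts, so the level of Cfb is uncertain. The values of C3 and Cfb overlapped between the diets.

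Cfp encodes properdin, which stabilizes the alternative convertase and is made by myeloid cells. Its levels were 73.38, 69.47 and 72.62 CPM in ND fat against 131, 90.65 and 154.3 CPM in HFD fat, so the lowest HFD library lay above the highest ND library. Cfp rose by 0.80 in log2 (SE 0.19, adjusted p = 0.034). It lost the call without ND1, ND2, ND3 or HFD1 (adjusted p = 0.0958 to 0.127) and in limma on log2(FPKM + 1) (adjusted p = 0.0557) and log2(FPKM + 0.1) (adjusted p = 0.0552).

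All 3 chains of C1q, the recognition molecule of the classical route, rose on HFD, with log2 fold changes of unequal size. Their genes lie side by side on the minus strand of chromosome 4 of GRCm38, C1qb from 136880129 to 136886187, C1qc from 136889804 to 136893065 and C1qa from 136895917 to 136898803. None of the 3 shares an exon or a run of 100 bases with another gene. The upstream bases of C1qb and C1qc are printed because the log2 fold changes of these chains exceeded that of C1qa, and those of C3ar1 because it had the highest of the genes past the threshold. They are RefSeq sequences on GRCm38.p6, minus strand, with chr4:136886201-136886450 for C1qb, chr4:136893066-136893164 for C1qc and chr6:122856162-122856407 for C3ar1. Bases inside the GENCODE gene were left out, which took 151 bases from C1qc and 4 from C3ar1. Capitals mark GAGGAA, a form of the ETS site of the type bound by PU.1, or TTCCTC where it lies on the other strand. Other forms of the ETS site were not searched and are not marked.

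C1qb: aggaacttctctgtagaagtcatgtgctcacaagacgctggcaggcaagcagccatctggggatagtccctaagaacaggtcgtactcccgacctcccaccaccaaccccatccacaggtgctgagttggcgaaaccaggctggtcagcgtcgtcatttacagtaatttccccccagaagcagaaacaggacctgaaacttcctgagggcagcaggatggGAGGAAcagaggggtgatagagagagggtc
C1qc: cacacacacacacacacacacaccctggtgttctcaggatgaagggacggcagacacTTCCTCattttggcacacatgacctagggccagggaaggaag
C3ar1: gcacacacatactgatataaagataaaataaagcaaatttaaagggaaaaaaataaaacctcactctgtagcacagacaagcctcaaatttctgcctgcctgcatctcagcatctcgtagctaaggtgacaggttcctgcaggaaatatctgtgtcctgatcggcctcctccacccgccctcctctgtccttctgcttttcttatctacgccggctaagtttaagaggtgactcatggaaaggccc

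C1qb held 1 GAGGAA, at bases -30 to -25 from its RefSeq start, and C1qc held 1 on the other strand, at bases -193 to -188. Neither GAGGAA nor TTCCTC was found in the window of C3ar1, where other forms of the ETS site were not searched. Promoters were found for 27 of the 35 genes. For 5 of these genes (C1qb, C1qc, Fcna, C5ar2 and Cd59a) at least 1 promoter held GAGGAA on either strand. Counted by promoter and not by gene, 23.3% of all 32851 promoters of the same 250 bases held it. A motif of the C/EBP type (TTGCNNAA, or TTNNGCAA on the other strand) was held by at least 1 promoter of 4 genes (C1s1, C3, C9 and C5ar2). Counted by promoter, 9.56% of all promoters held it. The letters are a description of the sequence and not a measurement of binding.

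C1qb, the B chain, had 197.5, 200.2 and 186.2 CPM in ND fat against 538.8, 440.5 and 749.8 CPM in HFD fat. The ND libraries lay within a narrow range and each HFD library was more than 2.26 times the ND mean. C1qb rose by 1.56 in log2 (SE 0.22, adjusted p = 0.00832, 2.96-fold), and the call held with any of the 6 libraries left out. C1qc, the C chain, had 175.1, 178.4 and 161.1 CPM in ND fat against 395.4, 311.8 and 526.6 CPM in HFD fat. It rose by 1.26 (SE 0.21, adjusted p = 0.0119) and lost the call without ND1, ND2 or HFD1 (adjusted p = 0.0538 to 0.0582). C1qa, the A chain, had 216, 231.3 and 209.1 CPM in ND fat against 363.1, 310.8 and 463.9 CPM in HFD fat. Its rise of 0.79 (SE 0.18, adjusted p = 0.0273) lost the call without ND1, ND2, ND3 or HFD1 (adjusted p = 0.0824 to 0.11) and with a replicate block (adjusted p = 0.059). For all 3 chains the diets did not overlap and the order among the HFD libraries was HFD2, HFD1, HFD3 from lowest to highest.

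The proportions between the chains differed between the diets in every library. The CPM ratio of C1qb to C1qa was 0.914, 0.866 and 0.891 across the ND libraries against 1.48, 1.42 and 1.62 in the HFD libraries. Its log2 value was -0.17 ± 0.04 on ND and 0.59 ± 0.10 on HFD (SD, n = 3 each), a difference of 0.76 (exact permutation test, two-sided p = 0.1). The ratio of C1qc to C1qa was 0.81, 0.771 and 0.77 on ND and 1.09, 1 and 1.14 on HFD, a log2 difference of 0.46 (exact permutation test, two-sided p = 0.1). Neither ratio overlapped between the diets. Both ratios were chosen after their values were seen, and a ratio within a library shows unequal change without saying which chain departed.

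The ratio of the C1q chains to the macrophage markers, a list without the C1q genes, was lower in each HFD library than in any ND library. The ratio was 0.337, 0.379 and 0.335 in summed CPM on ND and 0.265, 0.289 and 0.198 on HFD. The log2 ratio differed by -0.50 with no overlap (exact permutation test, two-sided p = 0.1), and by -0.17 when the mean log2(CPM + 1) of each list was used. Of the 15 markers, 5 had a lower log2 fold change than C1qa, 6 than C1qc and 7 than C1qb. The markers ran from -0.31 (Cx3cr1) to 3.72 (Cd68), with a median of 1.74 and none at 0. The part of macrophage content in the rise of C1q was not tested.

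**Figure D3:**
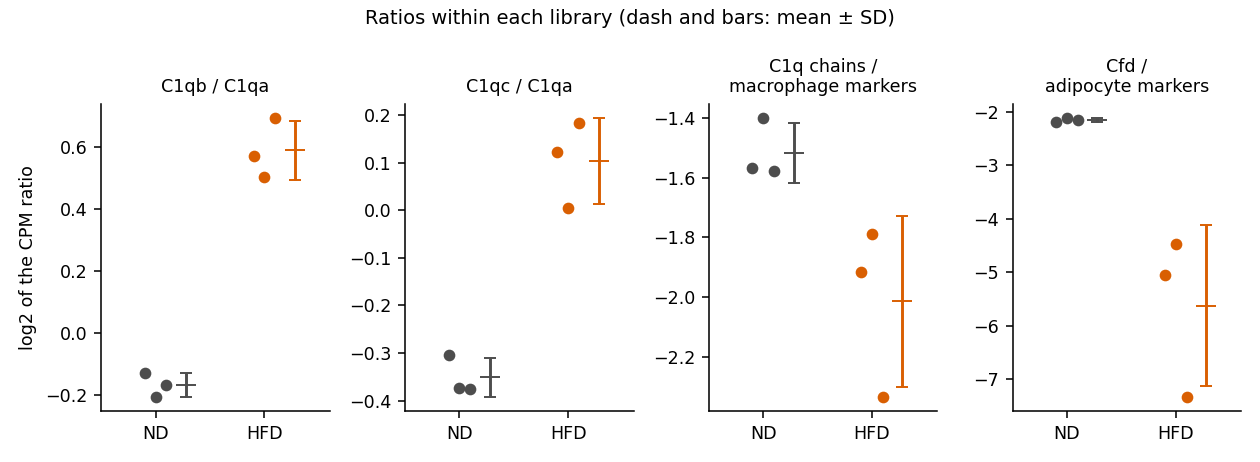
Log2 of CPM ratios within each library (y axes, each panel on its own scale) for C1qb to C1qa, C1qc to C1qa, the summed C1q chains to the summed macrophage markers, and Cfd to the summed adipocyte markers, with points for the 3 libraries per diet and a dash and bars for the mean ± SD. The chain ratios were higher on HFD and the 2 marker ratios lower, with no overlap in any panel.

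None of the genes of the proteases that C1q activates passed the test. C1ra, which encodes C1r, had 136.7, 115.1 and 115.1 CPM in ND fat against 114.5, 110.6 and 101.2 CPM in HFD fat. C1s1, which encodes C1s, had 337.2, 294.3 and 290.9 CPM in ND fat against 272.2, 250 and 256.9 CPM in HFD fat. Every HFD value of both genes lay under every ND value, for C1ra by a narrow margin (114.5 against 115.1 CPM). No overlap was also seen in 40.9% of all genes tested. The log2 fold changes of -0.17 (adjusted p = 0.372) and -0.25 (adjusted p = 0.243) did not pass edgeR's test. Of the 100-base runs of C1ra, 35.9% are shared with its copies C1rb and Gm18840, so its counts are uncertain. C1s1 shares 18.4% of its exon bases with Gm16567 and 6.87% of its 100-base runs with C1s2. Its counts may miss reads from these stretches. C1s2, a second C1s gene, had 9, 1 and 12 counts in ND fat against 9, 115 and 12 in HFD fat, a difference that rested on HFD2 alone (log2 fold change 2.78, SE 1.17, adjusted p = 0.145, and 0.61 without HFD2, adjusted p = 0.618).

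C2, the serine protease of the classical and lectin convertase, fell on HFD. The gene (chromosome 17 from 34862604 to 34898265) had 72.14, 75.78 and 77.94 CPM in ND fat against 32.74, 39.22 and 17.31 CPM in HFD fat. HFD3 was lowest, and no HFD library reached the ND range. The log2 fold change was -1.34 (SE 0.27, adjusted p = 0.0218), and the call was lost without ND1, ND2, ND3 or HFD1 (adjusted p = 0.0633 to 0.0801). Of its exon bases, 46.9% are shared with Gm20547 and Zbtb12. The counting may have left out reads from these bases or given them to the other genes, so the level of C2 is uncertain. C2 lies beside Cfb, which did not pass the test.

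C4b, the main C4 gene and the partner of C2, had 814.1, 1233 and 876.8 CPM in ND fat against 686.7, 1059 and 537 CPM in HFD fat. The diets overlapped and the log2 fold change was -0.36 (adjusted p = 0.433). C4a, which is annotated as a processed transcript here, had 15, 18 and 21 counts in ND fat against 9, 4 and 8 in HFD fat, so it passed the filter on low counts through its ND libraries. Its log2 fold change of -1.26 (adjusted p = 0.0786) did not pass, although the diets did not overlap. Of the 100-base runs of C4a 13.1%, and of C4b 15.2%, are shared with the other gene. Reads from these runs may be split between the genes or left out of the counts. C3 and C4b together were 0.313, 0.393 and 0.314 of the summed progenitor and fibroblast markers on ND and 0.411, 0.56 and 0.235 on HFD, which overlapped (exact permutation test, two-sided p = 0.7).

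In the lectin route Masp1 fell on HFD. It encodes a protease that activates this route and, in another isoform, is known to act on pro-factor D. Masp1 (chromosome 16 from 23449417 to 23520815) had 10.94, 24.74 and 6.715 CPM in ND fat against 2.128, 2.165 and 2.071 CPM in HFD fat. The HFD libraries were nearly alike, unlike those of the other lower genes, and the spread lay within ND. The log2 fold change was -2.73 (SE 0.49, adjusted p = 0.0144). The call was lost without HFD1 (adjusted p = 0.0678) and in limma on log2(FPKM + 1) (adjusted p = 0.063, log2 fold change -0.95 on that scale). Fcna, the plasma ficolin made by macrophages, had 36.72, 49.02 and 28.35 CPM in ND fat against 60.18, 34.35 and 40.15 CPM in HFD fat, with overlap (log2 fold change 0.24, adjusted p = 0.563). The collectin genes Mbl1 and Mbl2 were at 0 counts apart from 3 and 1 counts in HFD3, and Masp2 had 3 to 8 counts per library, so these 3 genes were not tested. Of the exon bases of Masp2, 54.9% are shared with Tardbp. Reads from these bases may have been left out or given to Tardbp, so the level of Masp2 is uncertain.

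Of the terminal components, C6 fell, C7 and C8g did not pass and 4 genes were barely detected. C6, which joins C5b at the start of the membrane attack complex, had 35.42, 33.26 and 27.95 CPM in ND fat against 12.6, 12.57 and 5.694 CPM in HFD fat. HFD3 was again lowest and the diets did not overlap. The log2 fold change was -1.65 (SE 0.30, adjusted p = 0.0155), and the call was lost without ND1, ND2 or HFD1 (adjusted p = 0.0544 to 0.0624). C7, which binds next, had 180.6, 49.31 and 227.2 CPM in ND fat against 34.05, 52.75 and 62.69 CPM in HFD fat. ND2 lay inside the HFD range, and the log2 fold change of -1.62 did not pass (SE 0.52, adjusted p = 0.0769). Without ND2 it passed (log2 fold change -2.03, adjusted p = 0.0368), and DESeq2's Wald test called it with all 6 libraries (adjusted p = 0.00435). C8g, the small chain of C8, did not pass (log2 fold change -0.33, adjusted p = 0.552).

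The genes for C5 (Hc), both large chains of C8 and C9 had too few counts to be tested. Hc had 0, 0 and 2 counts in ND fat against 4, 1 and 26 in HFD fat. C8a had 1 count in ND2 and none elsewhere, C8b had none in any library, and C9 had 0, 0 and 17 counts in ND fat against 5, 0 and 4 in HFD fat. A count of 0 allows up to 3 counts, so a low level was not detectable at this depth.

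Of the 4 receptor genes 3 rose on HFD, all of them receptors for the fragments C3a and C5a. C3ar1, the C3a receptor gene (ENSMUSG00000040552, chromosome 6 from 122847138 to 122856161), had 18.49, 15.24 and 20.09 CPM in ND fat against 172.9, 91.43 and 279.9 CPM in HFD fat. The lowest HFD library was 5.1 times and the highest 15.6 times the ND mean. C3ar1 rose by 3.33 in log2 (SE 0.40, adjusted p = 0.00651, 10.1-fold), and the call held with any of the 6 libraries left out (adjusted p of 0.0408 or less).

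C5ar1, the main C5a receptor gene, had 18.44, 18.08 and 18.6 CPM in ND fat against 112.4, 38.92 and 207.2 CPM in HFD fat. Its ND values were almost equal, while HFD3 was 11.3 times and HFD2 2.12 times the ND mean. C5ar1 rose by 2.70 (SE 0.54, adjusted p = 0.0202). C5ar2, the second C5a receptor gene, had 1.941, 1.043 and 1.89 CPM in ND fat against 11.68, 3.85 and 19.5 CPM in HFD fat. C5ar2 rose by 2.83 (SE 0.59, adjusted p = 0.0231) from 18 to 38 counts per ND library. Both lie next to each other on chromosome 7, C5ar2 from 16234585 to 16244154 and C5ar1 from 16246743 to 16259540, and the order of the HFD libraries was the same in all 3 genes. Without ND1, ND2, ND3 or HFD1 both C5a receptor genes lost the call (adjusted p = 0.0674 to 0.0879), C5ar1 also without the filter on low counts (adjusted p = 0.09), and C5ar2 in limma on log2(FPKM + 1) (adjusted p = 0.0589, log2 fold change 1.41 on that scale).

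The log2 fold changes of the 3 fragment receptor genes lay between the medians of the macrophage and the lipid-associated macrophage markers. Of the 15 macrophage markers, with a median of 1.74, 14 had a lower log2 fold change than C3ar1 and 13 than C5ar1 and C5ar2. Of the 9 lipid-associated macrophage markers, with a median of 4.54, 4 had a lower one than C3ar1 and 2 than C5ar1 and C5ar2. The summed CPM of both lists was highest in HFD3 and lowest of the HFD libraries in HFD2, the same order as in the receptor genes. The differences between genes, and the part of macrophage content in them, were not tested. Cr2, the B lymphocyte receptor for C3 fragments, had 12, 19 and 9 counts in ND fat against 44, 17 and 4 in HFD fat, with overlap (log2 fold change 0.74, adjusted p = 0.533).

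**Figure D4:**
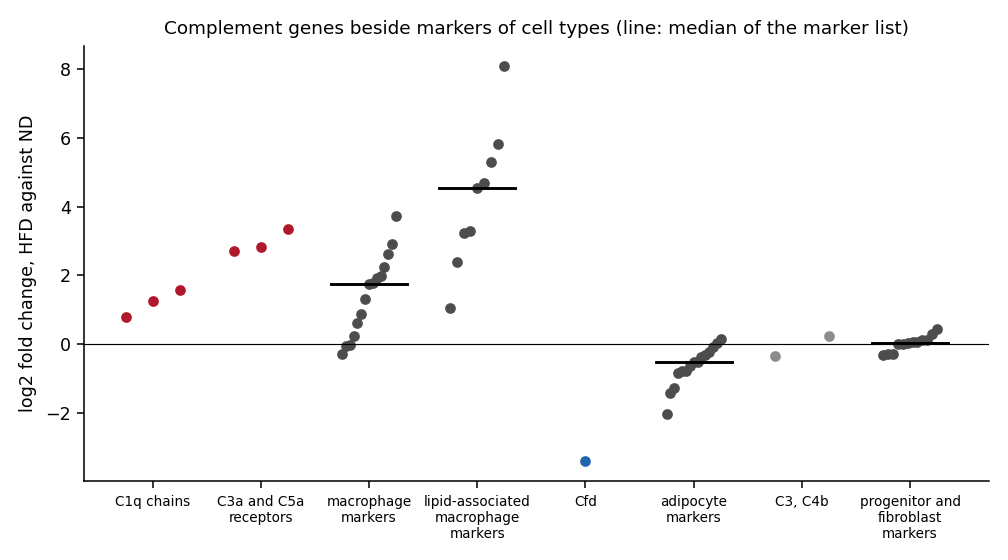
Log2 fold change of HFD against ND (y axis) for the C1q chains, the C3a and C5a receptor genes, Cfd, C3 and C4b beside the marker genes of macrophages, lipid-associated macrophages, adipocytes, and progenitors and fibroblasts, with 1 point per gene and a line at the median of each marker list. The C1q chains, at 0.79 to 1.56, lie under the macrophage median of 1.74, the 3 receptor genes above it and under the lipid-associated macrophage median of 4.54, and Cfd under every adipocyte marker.

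Among the regulators Cd59a alone passed the threshold. Cd59a encodes the membrane protein CD59, which blocks assembly of the membrane attack complex on host cells, and it had 107.9, 106.3 and 103.6 CPM in ND fat against 225.4, 316.3 and 148.9 CPM in HFD fat. It rose by 1.12 in log2 (SE 0.26, adjusted p = 0.0301) with no overlap. HFD2 was highest and HFD3 lowest of the HFD libraries, the reverse of the order in the C1q chains and the fragment receptors. The call was lost without ND1, ND2, ND3 or HFD1 (adjusted p = 0.0972 to 0.106) and in limma on log2(FPKM + 1) (adjusted p = 0.0506).

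The other regulators showed values that overlapped between the diets. Cr1l, which encodes the rodent C3 convertase regulator Crry, was the steadiest, with 86.8, 92.12 and 83.56 CPM in ND fat against 91.07, 95.04 and 94.9 CPM in HFD fat (log2 fold change 0.10, standard error 0.10, adjusted p = 0.542). Cd55, a decay accelerator of convertases, had 48.36, 60.02 and 49.79 CPM in ND fat against 44.31, 62.62 and 37.79 CPM in HFD fat (log2 fold change -0.13, adjusted p = 0.686). Clu, which encodes clusterin, had 148.8, 124 and 144.6 CPM in ND fat against 127.4, 191.3 and 78.51 CPM in HFD fat (log2 fold change -0.07, adjusted p = 0.884). In Cd55 and Clu the HFD libraries spanned the ND range, with HFD2 above and HFD3 under it. Cd46, a cofactor for C3b cleavage, had 49, 47 and 115 counts in ND fat against 53, 41 and 20 in HFD fat (log2 fold change -0.77, adjusted p = 0.29). Its highest ND value was in ND3, without which the log2 fold change was -0.33 (adjusted p = 0.656). Of the exon bases of Cd46, 14.2% are shared with other genes. Cfi, the factor I protease that inactivates C3b, had 5, 1 and 201 counts in ND fat against 6, 6 and 12 in HFD fat and was not tested. Its 201 counts came from ND3, the library with the high markers of motile cilium and duct epithelium, whose part in that value was not tested.

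**Figure D5:**
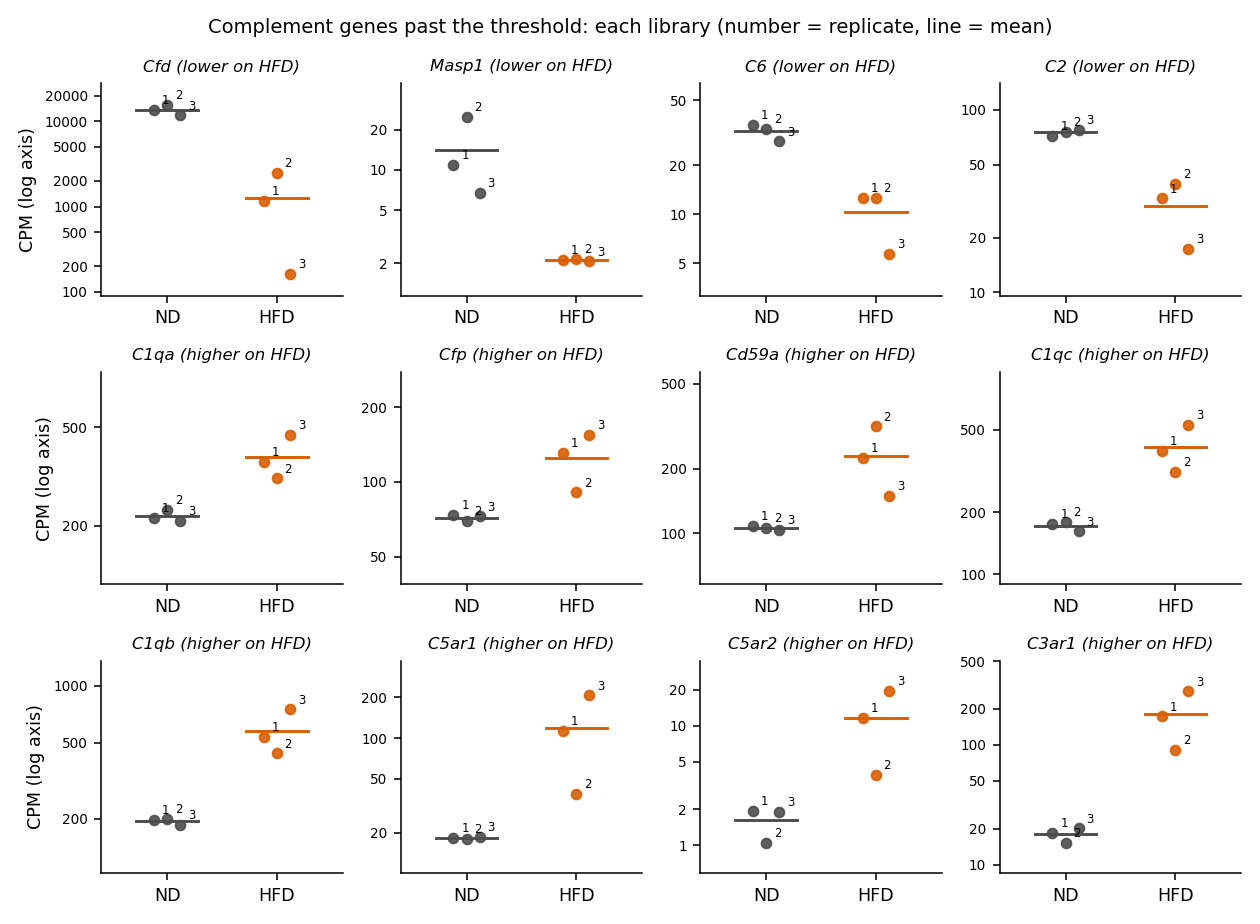
CPM (y axes, logarithmic, each panel on its own range) of the 12 complement genes past the threshold in the 3 ND (grey) and 3 HFD (orange) libraries, with the replicate number beside each point and a line at the mean. No panel shows overlap between the diets, and HFD3 lies farthest from the ND points in 11 of the 12 panels, all but Cd59a. In Masp1 the HFD points nearly coincide.

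The HFD libraries differed among themselves in a recurrent order. HFD3 lay farthest from the ND values in 7 of the 8 higher genes and in all 4 lower genes, and HFD2 lay farthest in Cd59a. The summed macrophage markers were likewise highest and the summed adipocyte markers lowest in HFD3, and the part of either in the differences was not tested. HFD1 lay between HFD2 and HFD3 in 11 of the 12 genes, all but C6. Masp1 is included in these counts, although its HFD libraries were nearly alike (2.128, 2.165 and 2.071 CPM), so their order says little. The greater distance of HFD3 from ND was not particular to complement genes. Over genes well counted in all 6 libraries, the median chi-square per gene against the ND libraries was 19.6 to 21.8 for HFD3. It was 10.1 to 13.4 for HFD1 and 6 to 8.21 for HFD2.

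Of 32 further genes linked to complement, 17 were tested, 4 were higher and 1 was lower on HFD. Over all genes tested, 9.85% were higher and 6.04% lower. Serping1, the C1 inhibitor gene, had 323.8, 219.6 and 307.1 CPM in ND fat against 478.9, 554.8 and 445.5 CPM in HFD fat. It rose by 0.80 (adjusted p = 0.0352) with no overlap. Vtn, which encodes vitronectin, an inhibitor of the membrane attack complex in plasma, had 29.17, 35.34 and 30.84 CPM in ND fat against 14.19, 15.76 and 10.58 CPM in HFD fat. Vtn fell by 1.24 on the log2 scale (adjusted p = 0.00888). The subunits of complement receptors 3 and 4 rose, with log2 fold changes of 1.98 for Itgam (adjusted p = 0.0243), 4.54 for Itgax (adjusted p = 0.00448) and 3.55 for Itgb2 (adjusted p = 0.00796). Itgam and Itgax are also among the macrophage and lipid-associated macrophage markers, and 68.7% of the exon bases of Itgam are shared with Gm49368. The calls of Vtn, Itgax and Itgb2 held with any of the 6 libraries left out, and those of Serping1 and Itgam were lost without ND1, ND2, ND3 or HFD1 (adjusted p up to 0.128). The other 12 genes tested did not pass, and 15 genes of this list were not tested.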

How the data were processed

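RNA-Seq was performed by the authors on epididymal fat (NEBNext Ultra RNA kit, strand not stated), 3 libraries per diet. The paper's methods name TopHat, Cufflinks and GRCm38, while the submitters' processing notes name CASAVA 1.8, fastp, HISAT2 2.0.5, featureCounts 1.5.0-p3, DESeq2 1.20.0 and another build; the identifiers are mouse Ensembl genes, and 54495 of 54532 were found in GENCODE M21 (GRCm38), which gave names and positions. The authors deposited raw counts per gene, and they deposited FPKM values scaled by gene length and library.

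CPM were computed with TMM factors (0.9216 to 1.066). The diets were compared with edgeR 4.0.16 (R 4.3.3; filterByExpr, glmQLFit with robust=TRUE, glmQLFTest), diet as the only factor and Benjamini-Hochberg adjustment, with 0.05 as the threshold. The standard error was derived from the F statistic. Single ratios were compared by an exact permutation test (scipy 1.17.1), which cannot go below 0.1. Limma 3.58.1 and DESeq2 1.42.0 gave alternatives, as did other normalizations, filters and dispersion settings, a replicate block and leaving out each library. The methods were tested on simulated data. No pair of libraries agreed within sampling noise (median chi-square per gene of 3 or more). Counting error alone sets the limit of 3 counts given for a count of 0.

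Each of the 35 genes is given. Those past the threshold and the main components are given by library, those not tested by counts, and the further complement genes by each call. Some results for the further genes are not reported here. The genes, lists and tests were chosen with earlier results of these data known. The ratios between C1q chains were added after their values were seen. Promoters came from RefSeq (GRCm38.p6), in which 27 of the 35 genes were found. C1qa, C2, C4a, C4b, Masp1, Cfb, Cfi and Clu were not among them.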

Additional observations from a re-analysis of the deposited data

How the results depend on the processing

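All 12 complement genes past the threshold kept their direction in each of the 9 alternative fits and with each library left out. The count of 12 ranged from 2 (without HFD1) to 12 with 1 library left out, that of higher genes (8) from 2 to 8 and that of lower genes (4) from 0 to 4. C1qb and C3ar1 passed in all 6 of these fits. In limma on log2(FPKM + 1), 5 were higher. With DESeq2's Wald test 14 passed, C1s2 and C7 being added, and without the filter 10 passed. The labels give the same-numbered libraries of the diets no link beyond the number. Their deviations from the diet means correlated by -0.0528, -0.0221 and 0.00362, and 0 of 6 libraries correlated best with its own number. With 3 libraries per diet, these values cannot exclude a shared batch. A replicate block left 11 complement genes and 1886 genes in all, and C1qa was lost (adjusted p = 0.059).

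Over all genes, leaving out 1 library gave 474 to 3940 calls (2504 with all 6), 337 to 2368 higher (1552) and 94 to 1572 lower (952), and DESeq2 called 3666, of them 1617 lower. Of the further complement genes, of which 5 passed, DESeq2 called 9 (7 higher, 2 lower), DESeq2's size factors and robust=FALSE each gave 2 lower, and leaving out 1 library gave 3 to 8 calls, 2 to 7 of them higher.

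The log2 difference of C1q against macrophage markers was -0.17 with mean log2(CPM + 1). That of C3 and C4b against progenitor markers was -0.0477 with mean log2(CPM + 1), and ran from -0.12 (without HFD2) to 0.50 with 1 library left out. The log2 fold changes of uncalled genes that turned with 1 library left out ran from -0.0616 to 0.46 for Fcna, -0.25 to 1.21 for Cr2, -0.36 to 0.0029 for Cd55 and -0.43 to 0.18 for Clu. The causes were not tested. With 3 libraries per diet, and a count of 0 allowing 3 counts, differences in the 8 genes not tested could not be judged. Of these, Cfi, Hc and C9 had most of their counts in a single library (201 in ND3, 26 in HFD3 and 17 in ND3).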

Other observations

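Some genes linked to complement had values set by single libraries. C1rb, the copy of C1ra, had 225, 2 and 5 counts in ND1, ND2 and ND3 and 6, 104 and 6 in HFD1, HFD2 and HFD3, and it was not tested. HFD2 was also the library with 115 counts of the nearby C1s2, whereas ND1, which had the most C1rb counts, had 9 of C1s2. Susd4, a membrane regulator, had 44, 17 and 350 counts in ND fat, with the highest value in ND3, against 7, 9 and 5 in HFD fat (log2 fold change -4.09, adjusted p = 0.0502 from edgeR's test). ND3 also held all 16 counts of Crp and 37 of the counts of Cpn1, which had at most 2 in any other library.

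Among the further complement genes that did not pass, Vsig4, a macrophage receptor for C3 fragments, had 24, 46 and 18 counts in ND fat against 94, 56 and 68 in HFD fat, with no overlap (log2 fold change 1.36, adjusted p = 0.0769). Colec12, a scavenger receptor with a collectin domain, had 73.59, 65.53 and 65.46 CPM in ND fat against 91.72, 83.25 and 90.59 CPM in HFD fat, also with no overlap (log2 fold change 0.37, adjusted p = 0.0558). Calr, which encodes the C1q-binding chaperone calreticulin, showed the same pattern (log2 fold change 0.80, adjusted p = 0.07). Over all genes tested, 40.9% likewise showed no overlap between the diets.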
